A study of Homo sapiens with 12 samples.

Results

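The genes described here are 9 members of the LIN28B, IGF2BP and let-7 axis: LIN28B, HMGA2, IGF2BP1, IGF2BP2, IGF2BP3, ARID3B, TUT4, TUT7 and DIS3L2. They were chosen by symbol, among 34318 genes with a matched transcript, and LIN28B was selected on its lower level after a POLR3A siRNA. Values of the siRNA comparison therefore describe the members without p-values, and calls at the threshold there are descriptions only. The rule that chose the members did not use the comparison with the inhibitor ML60218. Members and gene lists were, however, drawn up with earlier results of these data known. let-7 is a family of microRNAs that base-pair with mRNAs through a shared seed and lower their stability and translation. LIN28B binds let-7 precursors and blocks their maturation. TUT4 and TUT7 can add uridines to let-7 precursors, which the exonuclease DIS3L2 then degrades. HMGA2, the 3 IGF2BP mRNAs, ARID3B and LIN28B itself are described let-7 targets, so the axis contains a mutual repression between LIN28B and let-7.

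All 12 libraries were mRNA-seq of cells labelled as HEK293T, a human embryonic kidney line that carries SV40 large T antigen, bought from ATCC and used between passages 10 and 25. Titles of the DMSO and ML60218 libraries give the cells as 293 and those of the siRNA libraries as Hek293T. The 4 groups of 3 libraries were cells transfected with a control siRNA (siControl) or a POLR3A siRNA (siPOLR3A) and collected after 2 days, and cells given 0.1% DMSO or 25 µM ML60218 and collected after 4 hours. POLR3A encodes the largest subunit of RNA polymerase III, and ML60218 is an inhibitor of that polymerase. Nothing in the labels says that replicates came from separate cultures, so p-values measure the spread between these libraries, which may be technical. Libraries held 37008325 to 49479476 estimated reads. POLR3A itself was at 14.8 to 16.2 TPM (transcripts scaled to a fixed library total and to length) with siControl and 2.85 to 3.74 with siPOLR3A. Of 9 markers of kidney or simple epithelium, 6 had a median of at least 1 TPM, while PAX8, CDH16 and UMOD were at or near 0. The summed level of 6 neural markers was 171.1 to 195.8 TPM with siControl and 113.1 to 116.8 with siPOLR3A, where 3 markers were called lower and 3 higher, SYP among the latter at 2.33 on the log2 scale. The part of these markers in the results was not tested. In bulk RNA, fewer cells with a transcript and less of it per cell cannot be told apart. Mature let-7 is too short for these libraries, and no let-7 level is reported.

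The let-7 sequences are shown first because matches to their seed were searched in the members' 3′ UTRs. Other kinds of pairing were not searched. The RefSeq table (GRCh38.p14) held 9 mature let-7 and miR-98 sequences from 12 hairpins, each 22 bases long and with the same seed. Capitals mark the seed, bases 2 to 8. Of the 22 bases, let-7d has 20 in common with let-7a, let-7i has 18 and miR-98 has 20.
hsa-let-7a-5p: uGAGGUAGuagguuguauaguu
hsa-let-7d-5p: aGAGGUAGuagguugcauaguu
hsa-let-7i-5p: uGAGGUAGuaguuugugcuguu
hsa-miR-98-5p: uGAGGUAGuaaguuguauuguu

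Matches to this seed were searched on the mRNA strand of the 3′ UTR of each gene's most abundant coding transcript. The 8-base match is CTACCTCA, and the 7-base matches are CTACCTC and TACCTCA, counted once where they lie inside an 8-base match. Of 18417 UTRs scanned in the same way, 12.8% held a match, 3.0% an 8-base match and 2.0% at least 2 matches. A match is a description of the letters and not evidence of binding. Among the members, 7 of 9 held a match. Several members were listed because they are described let-7 targets, so this count follows from the choice and nothing is read from it. UTRs within 2-fold of a member's length held a match in 6.7% (DIS3L2) to 40.6% (IGF2BP1) of cases. HMGA2 had 7 in 3003 bases, LIN28B 5 in 4549, IGF2BP1 5 in 6206 and ARID3B 5 in 2357. IGF2BP2 had 2 in 1556 bases, IGF2BP3 had 1 in 2153, TUT4 had 1 in 660, and TUT7 and DIS3L2 had 0 in 718 and 567. UTRs within 2-fold of the length of LIN28B's held a match in 32.7% of 3474 cases, and 7 of them held 5 or more. The members LIN28B, HMGA2, IGF2BP1 and ARID3B were among these 7. In the same reckoning 1 of 5250 UTRs near HMGA2's length held 7 or more, which was HMGA2 itself. Near ARID3B's length 3 of 6096 held 5 or more, which were ARID3B, HMGA2 and LIN28B. These counts thus include the chosen members, and nothing is read from them.

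The windows below show the first match of 6 members and the second 8-base match of LIN28B, each 22 bases long and ending at the match, in genome build GRCh38 with the match in capitals. All lie in an exonic 3′ UTR. They are at chr6:105078813-105078834 and chr6:105081422-105081443 on the plus strand for LIN28B, chr12:65963299-65963320 plus for HMGA2, chr17:49051062-49051083 plus for IGF2BP1, chr3:185644220-185644241 minus for IGF2BP2, chr7:23311795-23311816 minus for IGF2BP3 and chr15:74595827-74595848 plus for ARID3B.
LIN28B, first: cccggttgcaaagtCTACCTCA
LIN28B, second 8-base: tttacagcaaaaggCTACCTCA
HMGA2: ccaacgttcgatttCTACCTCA
IGF2BP1: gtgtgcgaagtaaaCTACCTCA
IGF2BP2: acacacagaagaagCTACCTCA
IGF2BP3: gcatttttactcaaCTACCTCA
ARID3B: ttgatgcacagaattTACCTCA
The first 8-base matches of LIN28B and HMGA2 begin 44 and 21 bases after the stop codon. Those of IGF2BP1, IGF2BP2 and IGF2BP3 begin 1632, 1304 and 560 bases after it. LIN28B has 2 8-base matches, IGF2BP1 has 3, HMGA2, IGF2BP2 and IGF2BP3 have 1 each, and ARID3B and TUT4 have none.

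**Figure D1:**
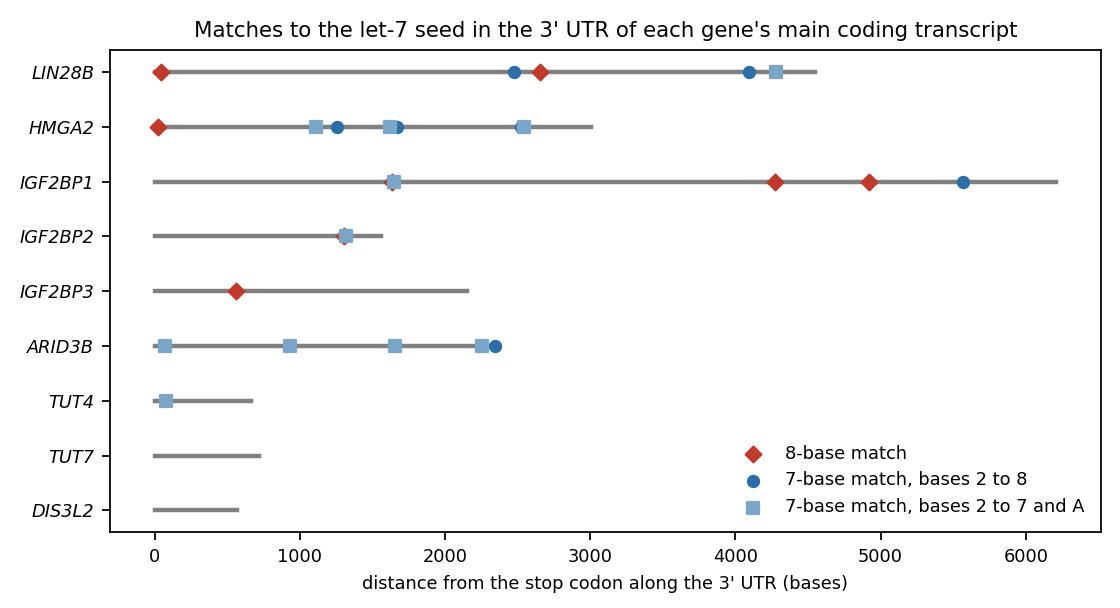
Each grey line is the 3′ UTR of a member's most abundant coding transcript, drawn to scale from the stop codon (0 on the horizontal axis, in bases), and symbols mark the 3 kinds of let-7 seed match. HMGA2 carries 7 matches, LIN28B, IGF2BP1 and ARID3B carry 5 each, and TUT7 and DIS3L2 carry 0.

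LIN28B (chr6:104936616-105083332, plus strand) was the member with the largest difference after the siRNA. Levels that allow genes to be compared are in TPM, which corrects for transcript length. LIN28B was at 70.1 ± 2.64 TPM with siControl and 24.4 ± 0.54 with siPOLR3A (mean ± SD, n = 3 for every group mean given as such). With DMSO it was at 44.3 ± 1.98 TPM, and with ML60218 at 41.2 ± 1.73. In the order siControl, DMSO, ML60218, siPOLR3A, only the neighbours DMSO and ML60218 overlapped. The 2 control groups, which belong to separate experiments, differed 1.58-fold in LIN28B, and 8.22% of 15766 genes had a ratio at least as high, with a median ratio of 1.01. Practically all of the signal came from 1 transcript, ENST00000345080.5, with 99.3% to 99.9% of the gene's TPM in each group.

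Within a comparison, changes were fitted on counts scaled to a fixed library total (CPM) after normalisation by trimmed mean of M-values. LIN28B read 290.1, 291.0 and 291.3 CPM in the siControl libraries and 97.9, 100.7 and 98.7 in the siPOLR3A libraries. Every siPOLR3A library lay far below every siControl library, with no overlap. The log2 fold change was −1.55 (SE 0.02), which is 2.93-fold lower, and 71 of 15404 tested genes had a lower value. After 4 hours of ML60218 LIN28B fell from 184.0, 187.2 and 179.3 CPM with DMSO to 156.5, 160.5 and 147.9. The groups again did not overlap, at −0.24 on the log2 scale (SE 0.04, adjusted p = 0.00107). This call held in all 15 alternative fits, with adjusted p from 1.47e-06 to 0.00985.

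**Figure D2:**
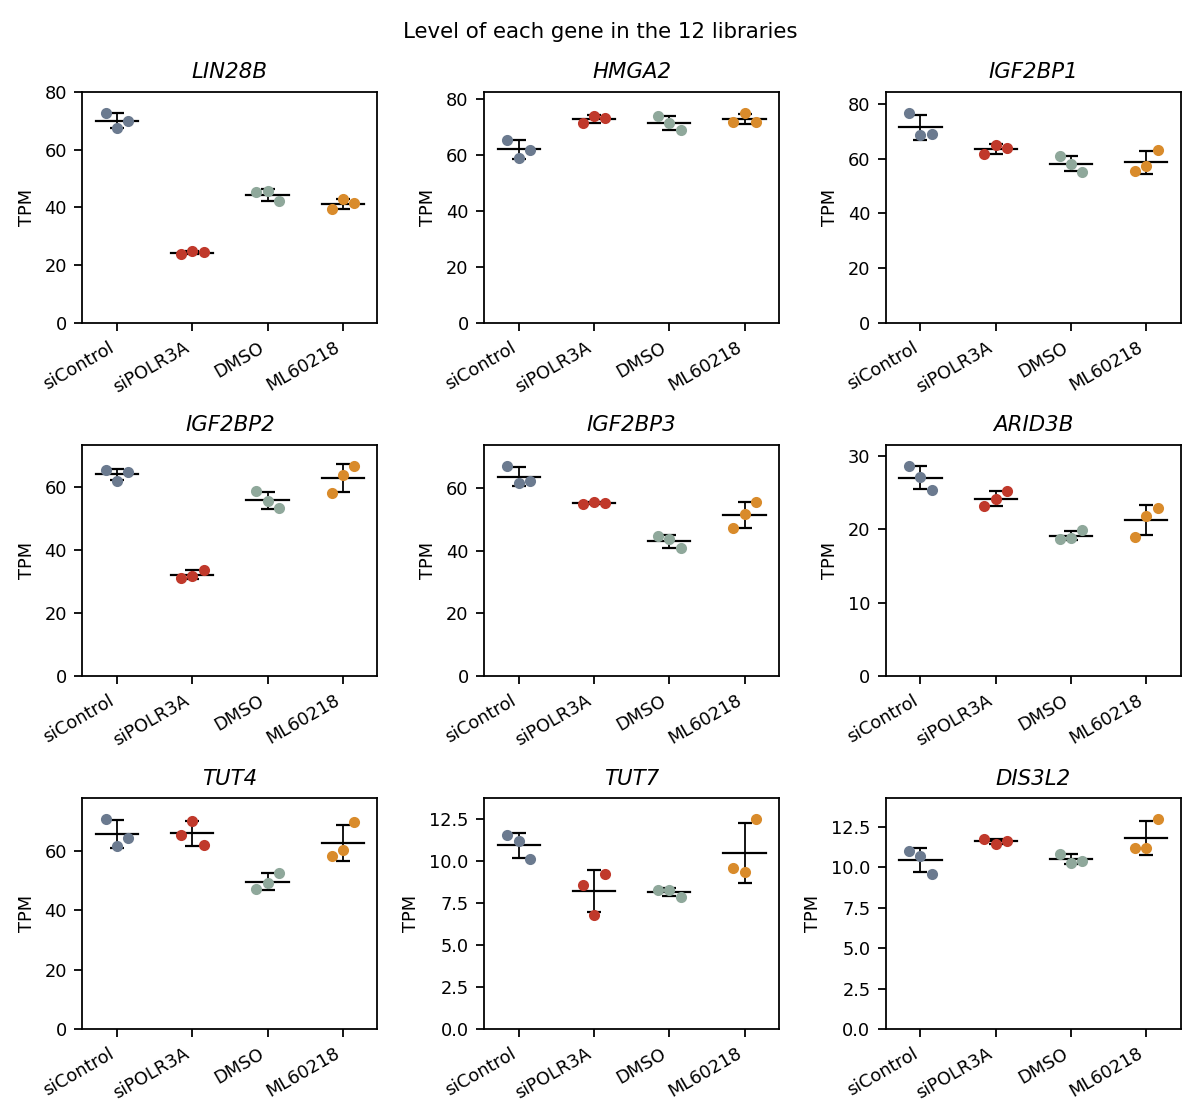
Each panel shows 1 gene's level in TPM (vertical axis, from 0) in the 12 libraries, as points by group, with the mean as a line and the SD as a bar. LIN28B and IGF2BP2 are lowest in the 3 siPOLR3A libraries, while HMGA2 is lowest in the 3 siControl libraries.

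The members were next counted against all genes. With siPOLR3A, 8 of 9 members passed an adjusted p of 0.05, where 56.6% of the 15404 genes tested passed. Of the members 2 were higher and 6 lower, against 27.4% and 29.2% of all genes, and groups were free of overlap for 8 of 9 members against 63.4% of all genes. LIN28B and IGF2BP2 were called and at least 2-fold lower, as were 1.94% of all genes. Because the siRNA comparison chose LIN28B, nothing is read from these counts. The median log2 fold change was −0.21 over the 9 members, −0.18 without LIN28B and 0.01 over all genes. With ML60218, 5 of 9 members passed, where 39.0% of 15461 genes did. Of these members 2 rose and 3 fell, against 18.1% and 20.9% of all genes, and 7 of 9 members against 51.9% of all genes were free of overlap. The median over the members was 0.03, against 0.01 over all genes. Scaling moved these splits: of the genes called, 48.4% were higher with siPOLR3A and 46.4% with ML60218, but 58.7% and 58.6% with upper quartile scaling and 57.0% and 67.0% with total counts only. On the deposited TPM scale the median of all genes was 0.15 higher with ML60218 than with DMSO, as a log2 ratio, and changes in that unit are read relative to this shift.

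**Figure D3:**
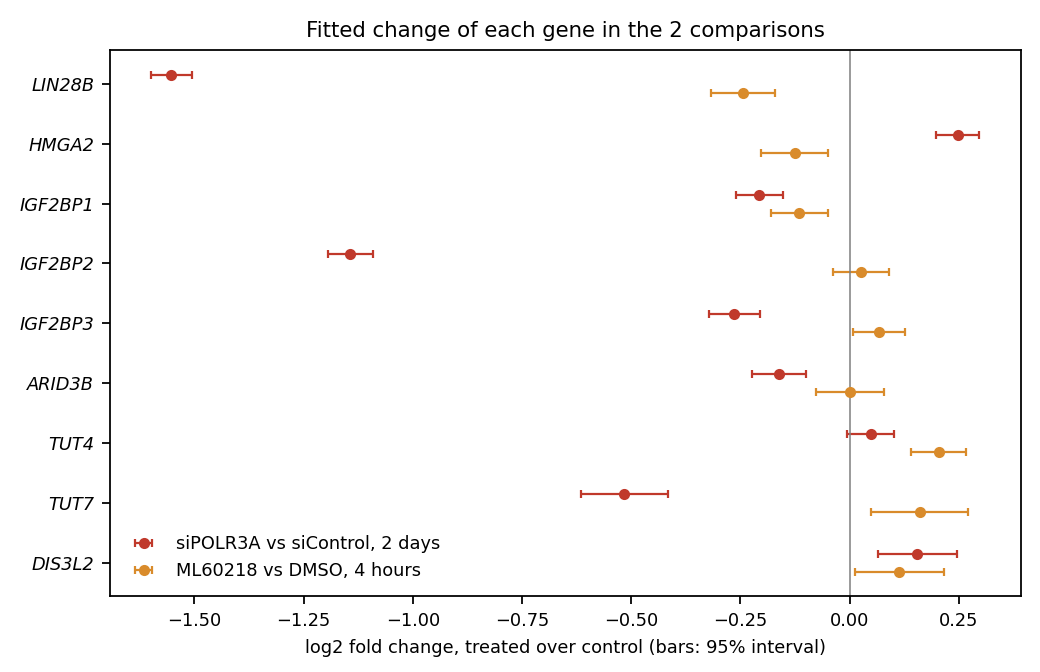
Points are log2 fold changes from edgeR on the horizontal axis, treated over control, for the 9 genes on the vertical axis. Bars are approximate 95% intervals, which are narrower than the edgeR test implies. LIN28B (−1.55) and IGF2BP2 (−1.14) stand furthest from 0 with siPOLR3A, and with ML60218 LIN28B (−0.24) and TUT4 (0.20) do.

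The IGF2BP proteins bind mRNAs in the cytoplasm and affect their stability, transport and translation. IGF2BP2 (chr3:185643739-185825056, minus strand) was the member nearest to LIN28B after the siRNA. It read 188.8, 186.2 and 189.1 CPM with siControl and 83.1, 86.2 and 86.0 with siPOLR3A. The siPOLR3A libraries were all below the siControl libraries, at 2.21-fold lower (log2 −1.14, SE 0.03). With ML60218 it was not called: DMSO libraries read 165.3, 163.3 and 158.1 CPM and ML60218 libraries 160.6, 167.2 and 167.6. These groups overlapped, and the log2 fold change of 0.03 had a 95% interval from −0.04 to 0.09 (adjusted p = 0.574). Besides LIN28B, IGF2BP2 alone of the 9 members had a 2-fold difference in either comparison. Its level was 64.2 ± 1.78 TPM with siControl, 32.2 ± 1.44 with siPOLR3A, 55.9 ± 2.72 with DMSO and 62.9 ± 4.44 with ML60218.

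The lower IGF2BP2 level was shared by its 3 transcripts with at least 10% of the gene's TPM. ENST00000346192.7 read 26.1, 25.0 and 24.2 TPM with siControl and 9.75, 10.5 and 9.13 with siPOLR3A. ENST00000382199.7 read 23.0, 20.3 and 21.3 against 11.9, 11.9 and 11.8 TPM, and ENST00000457616.6 read 10.9, 10.1 and 12.5 against 3.38, 3.66 and 5.22. All 3 coding transcripts were lower in every siPOLR3A library. A short processed transcript, ENST00000464166.1, was at 2.79 ± 0.92 and 2.75 ± 0.23 TPM in the same groups, so that it overlapped.

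**Figure D4:**
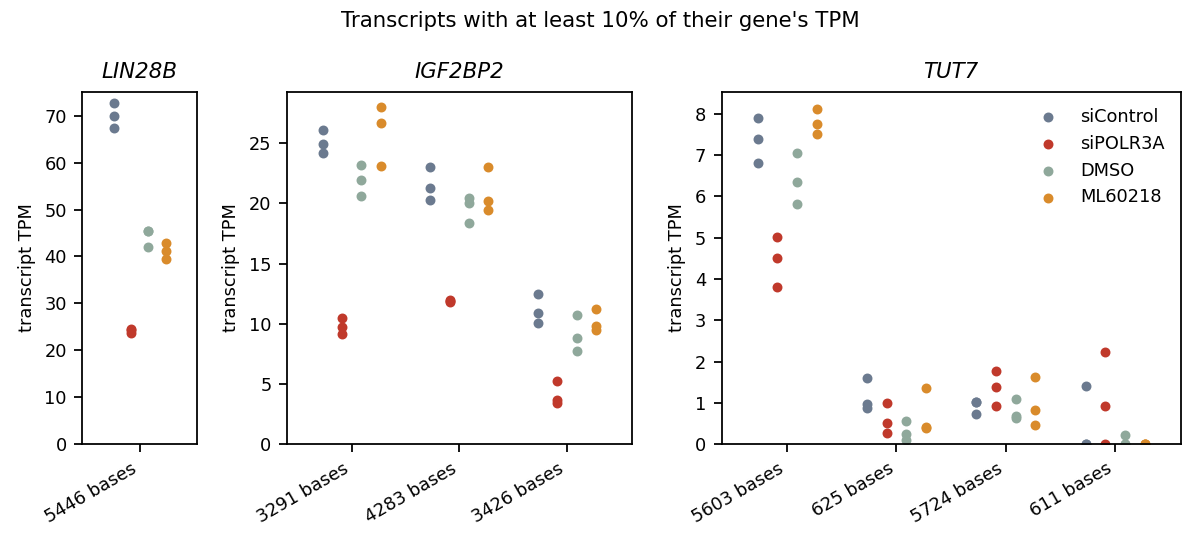
Points are TPM (vertical axis, from 0) of single transcripts in each library for LIN28B, IGF2BP2 and TUT7, coloured by group, with the deposited transcript length on the horizontal axis. The LIN28B transcript and all 3 IGF2BP2 transcripts are lowest with siPOLR3A, and TUT7 signal lies mostly in the transcript of 5603 bases.

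IGF2BP1 (chr17:48997412-49055650, plus strand), the paralog with the highest TPM in the 2 siRNA groups, read 536.2, 525.3 and 508.4 CPM with siControl and 439.2, 467.3 and 453.2 with siPOLR3A, without overlap (log2 −0.21, SE 0.03). With ML60218 it fell from 425.3, 411.0 and 405.0 to 378.5, 374.6 and 393.2 CPM, or −0.11 on the log2 scale (SE 0.03, adjusted p = 0.0208), although the TPM ratio was 0.01 before and −0.13 after subtracting the shift of all genes. The call was lost under total counts and upper quartile scaling (adjusted p = 0.396 and 0.0943), and without DMSO replicate 1, DMSO replicate 2 or ML60218 replicate 2 (0.106, 0.0661 and 0.0628). Its TPM was 71.5 ± 4.60 with siControl, 63.5 ± 1.65 with siPOLR3A, 58.2 ± 2.88 with DMSO and 58.7 ± 4.12 with ML60218.

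IGF2BP3 (chr7:23310209-23470467, minus strand), the remaining paralog, read 196.5, 198.7 and 193.8 CPM with siControl and 158.7, 171.2 and 160.8 with siPOLR3A. It was lower in every siPOLR3A library, by −0.26 on the log2 scale (SE 0.03). With ML60218 it was not called: 129.2, 129.0 and 127.2 CPM with DMSO stood against 132.4, 135.9 and 135.6. The groups did not overlap, and the log2 fold change was 0.07 (approximate 95% interval 0.01 to 0.13, which runs narrow, adjusted p = 0.105). Upper quartile and total count scaling gave adjusted p of 0.0168 and 0.0123. Its TPM was 63.7 ± 3.01, 55.3 ± 0.29, 43.1 ± 2.08 and 51.5 ± 4.18 with siControl, siPOLR3A, DMSO and ML60218. The 3 paralogs thus stood close in TPM with siControl, from 63.7 to 71.5, and apart with siPOLR3A, from 32.2 for IGF2BP2 to 63.5 for IGF2BP1.

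HMGA2 (chr12:65824131-65966295, plus strand), a chromatin protein that binds AT-rich DNA and is the let-7 target with the most matches here, stood the other way from LIN28B after the siRNA. It read 154.5, 153.7 and 153.7 CPM with siControl and 178.1, 187.2 and 183.0 with siPOLR3A. Every siPOLR3A library was higher, by 0.25 on the log2 scale (SE 0.03). With ML60218 it fell from 185.3, 180.5 and 181.9 to 172.2, 171.9 and 157.8 CPM, or −0.13 on the log2 scale (SE 0.04, adjusted p = 0.0273), although the TPM ratio was 0.03 before and −0.12 after subtracting the shift of all genes. The call was lost with upper quartile scaling, total counts and an offset for isoform length (adjusted p = 0.0925, 0.233 and 0.0825). It was also lost without DMSO replicate 1, 2 or 3 (0.0994, 0.0698 and 0.0712). HMGA2 was at 61.9 ± 3.24 TPM with siControl, 72.8 ± 1.38 with siPOLR3A, 71.4 ± 2.48 with DMSO and 72.8 ± 1.95 with ML60218, and ENST00000403681.7 held 86.5% to 91.6% of it.

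ARID3B (chr15:74541177-74598131, plus strand), an AT-rich-interaction-domain transcription factor, read 76.6, 75.4 and 76.8 CPM with siControl and 66.3, 67.5 and 70.9 with siPOLR3A. It was lower in every siPOLR3A library, by −0.16 on the log2 scale (SE 0.03). With ML60218 the values were 53.7, 52.8 and 54.6 CPM against 52.1, 54.6 and 54.5, which overlapped (95% interval of the log2 fold change −0.08 to 0.08, adjusted p = 0.999). Its level was 27.0 ± 1.62, 24.2 ± 1.00, 19.1 ± 0.62 and 21.3 ± 2.05 TPM with siControl, siPOLR3A, DMSO and ML60218. The relatives ARID3A and HMGA1, a chromatin protein, were lower in both comparisons. ARID3A changed by −0.39 (SE 0.04) with siPOLR3A and −0.34 (SE 0.07) with ML60218, and HMGA1 by −0.14 (SE 0.02) and −0.15 (SE 0.04). The ML60218 call of HMGA1 was lost with total counts and without DMSO replicate 1, where adjusted p reached at most 0.109.

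The enzymes that add uridines to let-7 precursors or degrade them come next. TUT4 (chr1:52408282-52553487, minus strand), a terminal uridylyltransferase, read 150.0, 143.2 and 148.5 CPM with siControl and 148.7, 155.0 and 152.9 with siPOLR3A. These overlapped, at 0.05 on the log2 scale (95% interval −0.01 to 0.10). TUT4 was the 1 member of 9 not under the threshold, and it was under it with upper quartile and total count scaling (0.11 and 0.10). With ML60218 it rose from 122.5, 121.8 and 120.4 to 137.4, 138.9 and 143.8 CPM, without overlap, by 0.20 on the log2 scale (SE 0.03, adjusted p = 0.00119). The call was lost in 1 of 15 alternatives, the offset for isoform length (adjusted p = 0.0506), and 7 transcripts held at least 10% of the gene in some group. TUT4 was at 65.7 ± 4.68, 66.0 ± 4.11, 49.8 ± 2.77 and 62.8 ± 6.12 TPM with siControl, siPOLR3A, DMSO and ML60218.

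TUT7 (chr9:86287733-86354454, minus strand), the paralog of TUT4, had the third largest siRNA difference of the members. It read 52.9, 52.2 and 50.4 CPM with siControl and 33.5, 36.0 and 39.2 with siPOLR3A. All siPOLR3A libraries were lower, by −0.52 on the log2 scale (SE 0.05), and the main transcript ENST00000375963.8 was at 7.37 ± 0.54 and 4.45 ± 0.61 TPM. Not all of its 4 transcripts with at least 10% of the gene in some group were lower. ENST00000469004.1 was at 1.15 ± 0.40 and 0.58 ± 0.37 TPM. Means were higher with siPOLR3A for ENST00000277141.10 (0.92 ± 0.17 and 1.36 ± 0.42) and ENST00000375947.1 (0.47 ± 0.81 and 1.05 ± 1.12). Libraries of these smaller transcripts overlapped. With ML60218 the gene TUT7 rose from 44.6, 44.7 and 40.6 to 48.7, 45.3 and 51.0 CPM, or 0.16 on the log2 scale (SE 0.06, adjusted p = 0.0485). This call was lost with an offset for isoform length (adjusted p = 0.0613), without DMSO replicate 1, 2 or 3 (0.0736, 0.0782 and 0.191), and without ML60218 replicate 1 or 3 (0.0827 and 0.134). At 10.9 ± 0.75 TPM with siControl, 8.20 ± 1.26 with siPOLR3A, 8.13 ± 0.24 with DMSO and 10.5 ± 1.76 with ML60218, TUT7 lay well below TUT4 in each group.

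DIS3L2 (chr2:231961245-232344350, plus strand), the exonuclease that degrades uridylated precursors, read 24.0, 23.7 and 23.1 CPM with siControl and 26.9, 25.8 and 26.0 with siPOLR3A. The siPOLR3A libraries were higher by 0.15 on the log2 scale (SE 0.05), a difference on the other side of the threshold in 3 of 15 alternatives. With ML60218 it was not called: 21.9, 21.8 and 22.3 CPM stood against 23.3, 23.1 and 24.9. The log2 fold change was 0.11 (approximate 95% interval 0.01 to 0.22). The edgeR test gave an unadjusted p of 0.0538 and an adjusted p of 0.111, so the approximate interval is narrower than that test implies. Upper quartile and total count scaling gave adjusted p of 0.0439 and 0.0283. DIS3L2 was at 10.5 ± 0.76, 11.6 ± 0.15, 10.5 ± 0.31 and 11.8 ± 1.04 TPM with siControl, siPOLR3A, DMSO and ML60218. Among enzymes with related functions, the exosome nuclease DIS3 was not called in either comparison (log2 0.00 and −0.05). DIS3L was at 0.04 and 0.12, the latter called (adjusted p = 0.0331) but lost in 7 of 15 alternatives, among them each of the 3 fits without a DMSO replicate and those without ML60218 replicate 2 or 3. TUT1, the uridylyltransferase of U6 RNA, was at −0.27 (SE 0.05) with siPOLR3A, where the offset for isoform length ended the call (adjusted p = 0.173), and at 0.24 (SE 0.05) with ML60218.

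The wider pathway was described with gene lists. LIN28A, the paralog of LIN28B, was near the limit of detection at 0.11 ± 0.03 TPM with siControl and 0.11 ± 0.004 with siPOLR3A, and was not called in either comparison. Of 20 factors that control let-7 precursors, 5 were higher and 7 lower with siPOLR3A (median log2 fold change −0.02), beside 27.4% and 29.2% of all genes. The lowest was TRIM25, an RNA-binding ubiquitin ligase that assists LIN28-dependent uridylation, at −1.31 (SE 0.03). With ML60218 1 was higher and 9 lower (median −0.03), beside 18.1% and 20.9% of all genes, but 4 higher and 3 lower with total counts. DICER1, the enzyme that cuts precursors to mature microRNAs and itself a let-7 target, fell by 0.35 on the log2 scale with ML60218 (SE 0.04, adjusted p = 0.000228), from 119.3 ± 4.15 to 93.7 ± 2.11 CPM, and was not called with siPOLR3A (0.07, SE 0.06). SYNCRIP was the 1 called higher with ML60218 (0.24, SE 0.08, adjusted p = 0.0488), a call lost in 7 of 15 alternatives, among them those without DMSO replicate 1 and without each ML60218 replicate, with values down to −0.19.

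Of 22 other uridylation and 3′ decay enzymes, 3 were higher and 12 lower with siPOLR3A (median −0.13), beside 27.4% and 29.2% of all genes, and 5 were higher and 9 lower with upper quartile scaling. The extremes were ERI1 at 0.24 (SE 0.03) and TENT4B, a noncanonical poly(A) polymerase, at −0.84 (SE 0.04). With ML60218 4 were higher and 6 lower (median −0.04), beside 18.1% and 20.9% of all genes, and with total counts 6 were higher and 3 lower. EXOSC8, an exosome subunit, rose by 0.36 (SE 0.06) and LSM1, part of the ring that binds oligouridylated mRNA ends, fell by 0.37 (SE 0.05). Of the 8 genes listed as hosts of let-7 hairpins, 3 were tested and the others are not analysed here. WDR82, the host of let-7g, was lower in both comparisons (−0.32, SE 0.03, and −0.33, SE 0.03), while HUWE1, the host of let-7f-2 and miR-98, was called with ML60218 alone (0.35, SE 0.07, against 0.07, SE 0.10, with siPOLR3A). The difference between these effects was not tested.

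Other described let-7 targets did not move one way. Of 42, 13 were higher and 17 lower with siPOLR3A (median −0.04, against 0.01 for all genes), beside 27.4% and 29.2% of all genes. With ML60218 9 were higher and 17 lower (median −0.02), beside 18.1% and 20.9% of all genes. Scaling turned both splits, to 16 higher and 15 lower with siPOLR3A under upper quartile scaling and to 12 higher and 11 lower with ML60218 under total counts. After the siRNA the extremes were PRTG, a cell-surface protein of the early embryo, at 0.92 (SE 0.04), and CCND2, cyclin D2, at −1.06 (SE 0.03). After ML60218, among targets whose mean log2 CPM was 1 or more, they were MYC, the growth-promoting transcription factor, at 0.74 (SE 0.15, adjusted p = 0.0168), and CEMIP2 at −0.66 (SE 0.11, adjusted p = 0.00465). MYC rose from 71.7 ± 1.57 to 130.4 ± 29.9 TPM. Leaving out any DMSO replicate (1, 2 or 3) ended its call, at adjusted p of at most 0.0624. With siPOLR3A MYC was at −0.26 (SE 0.03).

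**Figure D5:**
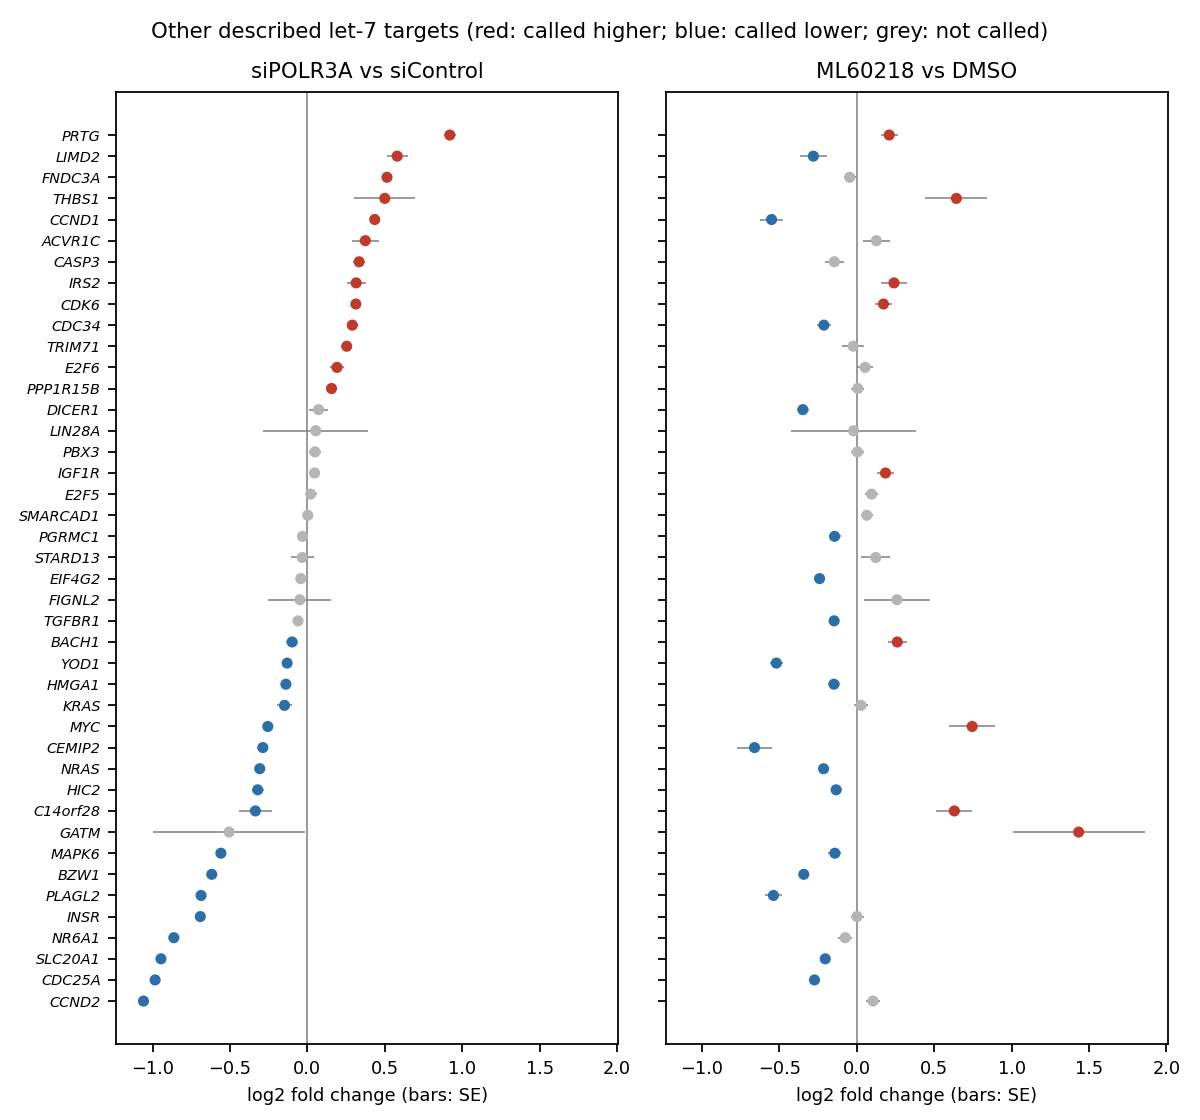
Each point is the log2 fold change (horizontal axis, bar 1 SE) of 1 of 42 described let-7 targets other than the members, ordered by the siPOLR3A value. Red marks 13 genes called higher with siPOLR3A and 9 with ML60218, blue marks 17 called lower in each, and both panels spread to either side of 0.

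Seed matches were then set against changes across the transcriptome. The members were left out here. Among the other tested genes with a scanned UTR, 335 with at least 2 let-7 matches had a median log2 fold change of 0.01 with siPOLR3A. The 1737 with 1 match had −0.02 and the 11985 without a match had 0.00. With ML60218 the medians were 0.04, 0.03 and −0.01 over 332, 1737 and 12035 genes. These groups differ in UTR length, with medians of 4172, 2333 and 796 bases in the siPOLR3A comparison. Among UTRs of at least 2000 bases, genes with 2 or more matches had medians of 0.02 (273 genes) with siPOLR3A and 0.05 (271) with ML60218, and genes without a match had −0.04 (2552) and 0.03 (2563).

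IGF2BP partners and mRNAs described as bound by IGF2BP proteins were listed as well, and H19 is not analysed here. Of 14 tested, 7 were higher and 5 lower with siPOLR3A (median 0.10), beside 27.4% and 29.2% of all genes. With ML60218 2 were higher and 6 lower (median −0.07), beside 18.1% and 20.9% of all genes. Over the alternatives for ML60218, 0 to 2 were higher and 4 to 7 lower, and total counts gave 2 and 4. IGF2, the growth factor mRNA that gave the family its name, was low, at 2.01 ± 0.27 TPM with siControl and 2.88 ± 0.20 with siPOLR3A, a log2 fold change of 0.59 (SE 0.08). CD44, a cell-surface receptor, was at −0.50 (SE 0.10) with siPOLR3A. ACTB, whose mRNA is a classical IGF2BP1 cargo, was at 0.13 (SE 0.02) with siPOLR3A and fell by 0.25 (SE 0.04, adjusted p = 0.00194) with ML60218.

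The genes whose pattern over the 12 libraries was most like that of LIN28B were found by the root mean square distance between centred log2 CPM values. The nearest 5 of 10338 protein-coding genes were EGLN3, an oxygen-sensing prolyl hydroxylase (distance 0.13), CGN, the tight-junction protein cingulin (0.15), PDCD4, an inhibitor of translation (0.16), RBL2, a retinoblastoma relative (0.16), and PRKCH, a protein kinase C (0.17). The median distance of all genes was 0.57, and 4 of the 5 were also nearest with TPM. All 5 were at −1.21 to −1.54 with siPOLR3A. Because they were picked for nearness to LIN28B over all 12 libraries, siPOLR3A values near that of LIN28B follow from the choice. With ML60218 CGN was at −0.33 and the other 4 between −0.08 and 0.06. Among the members IGF2BP2 was nearest to LIN28B (0.26, rank 46) and TUT7 next (0.40, rank 712), and HMGA2 was furthest (0.64, rank 7587). This order also includes the siRNA libraries on which LIN28B was chosen, so nothing further is read from it.

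In the same UTRs, copies of GAGGGA and of GACGTA, each 6 bases long, were counted on the mRNA strand once the values were known. Of all UTRs, 29.9% held GAGGGA and 3.2% held GACGTA. No member held GACGTA. LIN28B held 3 copies of GAGGGA, IGF2BP3 2, IGF2BP1 and IGF2BP2 1 each, and HMGA2, ARID3B, TUT4, TUT7 and DIS3L2 0. In the rest of the transcript TUT7 held 4, DIS3L2 2, and LIN28B and ARID3B 1 each. Of UTRs within 2-fold of LIN28B's length 62.8% held a copy and 17.7% held 3 or more. All 5 genes most like LIN28B held at least 1 copy of GAGGGA, PRKCH 2, and RBL2 also held 1 of GACGTA. Their UTRs were 1145 to 1918 bases long, and of UTRs within 2-fold of IGF2BP2's 1556 bases 40.5% held GAGGGA. Both the 5 genes and the 6-base sequences were taken up from these same data, so nothing is read from this count. The members with a copy in the UTR were all lower with siPOLR3A, as were ARID3B and TUT7 without one. A copy was held by 70.9%, 40.5% and 47.2% of UTRs within 2-fold of the lengths of IGF2BP1, IGF2BP2 and IGF2BP3. LIN28B was chosen on this comparison, and a link between the sequence and the change was not tested. The members were left out of the following groups. Among genes with no let-7 match, 3506 with GAGGGA had a median log2 fold change of −0.06 with siPOLR3A (24.8% higher, 39.3% lower). The 8479 without it had 0.02 (29.8% higher, 27.1% lower). Their median UTR lengths were 1684 and 557 bases. Among genes with 2 or more matches the medians were −0.03 (231 genes with GAGGGA) and 0.05 (104 without), and median UTR lengths were 5211 and 2787 bases. With ML60218, genes without a let-7 match had medians of −0.01 both with and without GAGGGA. These splits were not matched for UTR length, and the sequence was taken up from these same data. Nothing is therefore read from the splits.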

How the data were processed

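The authors deposited 1 table for 12 libraries, with an estimated count (read number), a TPM value, a length and an effective length per transcript, in the columns that salmon writes. The quantifier, its version and its transcript release are not given in the sources used here. Per the submitters' processing notes, bcl2fastq 2.20, Trim Galore, DESeq2 and hg38 were used, and per the labels' protocols a stranded mRNA kit was used. The deposited effective lengths, in bases and shared by all libraries, served for the isoform length offset. Of 194142 transcripts, 158359 (81.6%) were matched by identifier to GENCODE 29, without regard to version, and 8.37% to 8.97% of reads had no match and stayed out. Estimated counts and TPM were summed per gene, and counts were rounded. UTRs came from GENCODE 29, whose versions of most members' transcripts differ in length from those deposited.

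The 2 comparisons were fitted separately, 6 libraries each, in edgeR 4.0.16 (R 4.3.3): filterByExpr (minimum count 10), TMM scaling, glmQLFit with robust estimation and glmQLFTest, with Benjamini-Hochberg adjustment over all genes tested and a threshold of 0.05. The 95% intervals are normal approximations from the SE. They are narrower than glmQLFTest implies with so few libraries, and do not stand for its p-values. The fit was tested on simulated data. An exact permutation test of 3 against 3 cannot go below 0.1 and was not used. Members and lists were chosen with earlier results of these data known. All 9 members are named, as are the called gene of each list with the largest rise and fall (mean log2 CPM at least 1), a set of relatives, and the 5 genes most like LIN28B (mean log2 CPM at least 3). A gene that this rule names is not reported here. Replicate numbers did not pair the libraries. Alternatives were 3 other scalings, no low count filter, DESeq2 1.42.0, a replicate block, all libraries in 1 fit, an isoform length offset, neighbouring transcripts included, and each replicate left out.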

Additional observations from a re-analysis of the deposited data

How the results depend on the processing

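The siPOLR3A comparison called 7402 to 9163 genes over the fits with all libraries and 7998 to 8361 with 1 library left out, against 8722. The ML60218 comparison called 4604 to 6799 and 4159 to 6501, against 6029. All siPOLR3A differences of LIN28B, HMGA2, the IGF2BP genes, ARID3B, TUT7 and DIS3L2 kept their direction in 16 alternatives, TPM included, while TUT4 ran from −0.02 to 0.11. With ML60218, LIN28B kept its direction in all 16 (−0.27 to −0.11) and TUT4 did (0.18 to 0.34). The deposited TPM reversed HMGA2 (0.028) and IGF2BP1 (0.012), where all genes were shifted up by 0.15. ARID3B lay at 0 and changed sign with RLE scaling (0.004), upper quartile scaling (0.039), total counts (0.071), DESeq2 (0.004), all 12 libraries in 1 fit (0.00), the isoform length offset (0.009), TPM (0.15), and without DMSO replicate 3 or ML60218 replicate 1 (0.011 and 0.020); leaving out 1 library gave −0.013 to 0.020.

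With a replicate block, 8493 genes were called with siPOLR3A and 5393 with ML60218, and among the members TUT7 lost its ML60218 call (adjusted p = 0.0913). Same-numbered libraries did not deviate together (correlations of deviations from group means −0.11 to 0.06), and not every library correlated best with its own number. Among list counts, 479 stayed within 1.5 times the value given and 61 did not. At 3388 to 11237 reads per library LIN28B was deeply covered, and DIS3L2, at 801 to 1126, least of the members.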
